A study of Mus musculus with 6 samples.

Results

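The genes described here encode nuclear subunits of respiratory complexes II, III and IV and of the ATP synthase (complex V), with several assembly factors of these complexes. They were chosen by name from the deposited transcript table: every row whose gene name begins with Sdh and a letter, Uqcr, Cox and a digit, or Atp5. The choice gave 87 of 15113 transcript rows and 46 of 7171 StringTie loci, a locus being the set of overlapping transcripts that the assembler gave 1 identifier. Of the 46 loci, 37 encode subunits (4 of complex II, 8 of complex III, 10 of complex IV and 15 of complex V) and 6 encode assembly factors (Sdhaf2, Cox14, Cox16, Cox17, Cox18 and Cox20). The other 3 are Cox7a2l, which joins complexes III and IV into supercomplexes, Atp5s, and Atp5sl, a gene named after Atp5s and now called Dmac2. They lie on 18 chromosomes.

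RNA was sequenced from the mouse line C17.2, multipotent neural stem cells of CD1 x C57BL/6 background that have long been kept in culture. The groups were cells treated with heme, cells after neural induction in a medium with N2 supplement and BDNF, a neurotrophin, at 10 ng/ml, and control cells in growth medium with serum. The labels give 2 biological replicates in each of the 3 groups; the sources used here do not state the heme dose, the exposure times or what medium held the heme. All groups are 1 cell line, and the induction medium differs from the growth medium in its base and supplements as well as in BDNF, so induction and medium cannot be told apart.

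Complex II (succinate dehydrogenase) passes electrons from succinate to ubiquinone and is also an enzyme of the citric acid cycle. Complex III moves electrons from ubiquinol to cytochrome c, complex IV (cytochrome c oxidase) passes them to oxygen, and complex V uses the resulting proton gradient to make ATP. Complex II is encoded wholly in the nucleus, whereas complexes III, IV and V combine nuclear subunits with a few made from mitochondrial DNA. Heme is itself a cofactor of complexes II, III and IV, and neural differentiation is widely associated with a shift from glycolysis to oxidative phosphorylation.

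Mapped sequence came to 4.14 to 4.56 gigabases in each of 5 libraries, and their listed FPKM (fragments corrected for transcript length and library size) totalled 398224 to 411657. The heme replicate 2 column was a scaled copy of heme replicate 1: the ratio of the columns lay between 1.253 and 1.499 for each of the 85 transcripts above 0 that carry a name described here, with a mean of 1.38, and averaged 1.37 over all 13963 transcripts above 0, none of which was at 0 in only 1 of the columns. The heme group was therefore taken as 1 sample, and every heme value below comes from heme replicate 1. Of the fixed cell type markers, 5 of 12 neural progenitor genes were listed (Nes, Sox2, Vim, Hes1 and Cdh2, summing to 879 to 1026 FPKM over libraries), as were 3 of 8 neuronal and 5 of 6 mesenchymal genes (39.2 to 61.4 and 2761 to 3650 FPKM). Control replicate 2 held the lowest progenitor and mesenchymal sums; the part of these differences in the results below was not tested.

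Promoters of these genes often held the core letters of ETS-family sites, which the nuclear respiratory factor GABP (NRF2) is known to bind. In windows from 250 bases before to 50 bases after the RefSeq start (GRCm38.p6), found for 37 of the 46 genes, CCGGAAG or its reverse complement CTTCCGG occurred in 16 genes (43.2%), against 9.93% of 27025 genes with a window and 23.6% of the 4691 genes with a window that the deposited table names. The NRF1 letters GCATGCGC occurred in 7 of the 37 (18.9%), against 3.05% of all genes and 6.95% of the listed ones. The YY1 letters AAGATGGC were in 5 (13.5%, against 3.19% and 6.12%), and the estrogen-related receptor letters TCAAGGTCA in 2 (5.41%, against 0.466% and 0.320%). The SP1 letters GGGCGG were in 40.5% of these genes, against 38.2% of all and 73.6% of the listed genes, and CCAAT was in 54.1%, against 41.1% and 44.7%. All motifs were read on both strands, none contains another, and a match is a description of letters, not a binding site. The window of the most abundant gene of each complex that holds the ETS letters is given here, with the ETS and NRF1 letters in capitals. The Sdhb and Uqcr11 windows hold 1 match of each kind, Cox8a holds 2 ETS matches and Atp5h holds 1.
Sdhb promoter (chr4:140961021-140961320, + strand, GRCm38.p6): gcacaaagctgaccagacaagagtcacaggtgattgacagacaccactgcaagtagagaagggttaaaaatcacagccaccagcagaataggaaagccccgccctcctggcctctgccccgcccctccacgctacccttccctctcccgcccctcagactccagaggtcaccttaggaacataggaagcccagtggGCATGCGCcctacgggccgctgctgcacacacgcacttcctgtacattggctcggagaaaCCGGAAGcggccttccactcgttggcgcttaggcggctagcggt
Uqcr11 promoter (chr10:80406772-80407071, - strand, GRCm38.p6): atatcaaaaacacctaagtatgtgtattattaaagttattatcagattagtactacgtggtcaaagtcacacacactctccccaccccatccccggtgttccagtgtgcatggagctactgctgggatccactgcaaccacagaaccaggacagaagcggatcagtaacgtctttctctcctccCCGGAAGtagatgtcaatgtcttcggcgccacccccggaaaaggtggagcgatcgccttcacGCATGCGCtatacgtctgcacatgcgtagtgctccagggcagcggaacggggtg
Cox8a promoter (chr19:7217567-7217866, - strand, GRCm38.p6): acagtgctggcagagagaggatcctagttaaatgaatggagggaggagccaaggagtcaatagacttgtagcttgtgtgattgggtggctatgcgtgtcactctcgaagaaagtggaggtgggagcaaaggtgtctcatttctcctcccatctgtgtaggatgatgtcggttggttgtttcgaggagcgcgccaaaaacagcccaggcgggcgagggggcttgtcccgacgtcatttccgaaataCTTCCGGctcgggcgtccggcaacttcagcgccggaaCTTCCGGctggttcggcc
Atp5h promoter (chr11:115419870-115420169, - strand, GRCm38.p6): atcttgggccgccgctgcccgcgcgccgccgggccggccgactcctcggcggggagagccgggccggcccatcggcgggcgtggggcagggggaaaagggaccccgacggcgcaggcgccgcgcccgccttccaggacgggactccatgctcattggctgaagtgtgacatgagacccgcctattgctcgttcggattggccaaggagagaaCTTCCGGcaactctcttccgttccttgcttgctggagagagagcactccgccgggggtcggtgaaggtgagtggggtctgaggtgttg

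The genes were highly and evenly expressed. All 46 loci passed the filter of at least 1 FPKM in at least 2 libraries. Their mean over the 5 libraries ran between 1.99 FPKM for Atp5s and 833 FPKM for Atp5b, with a median of 109 FPKM against 17.7 FPKM for all 7171 loci. Of the 46, 34 (73.9%) averaged at least 50 FPKM, against 19.3% of all loci. Together they took 1.43% of the listed FPKM in the heme library, 1.51% and 1.47% in the neural induction libraries, and 1.47% and 1.45% in the control libraries. The ratio of the highest to the lowest library had a median of 1.17 over these loci and 1.31 over the 7039 loci that passed the filter. The loci compared were not matched for level. This ratio is also set against all 7171 loci. The ratio was below 1.3 for 32 of the 46 (69.6%), against 45.3% of all loci, and at least 2 for 3 of them (6.52%), against 15.1%: the copper chaperone Cox17, Atp5s and Atp5sl.

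**Figure D1:**
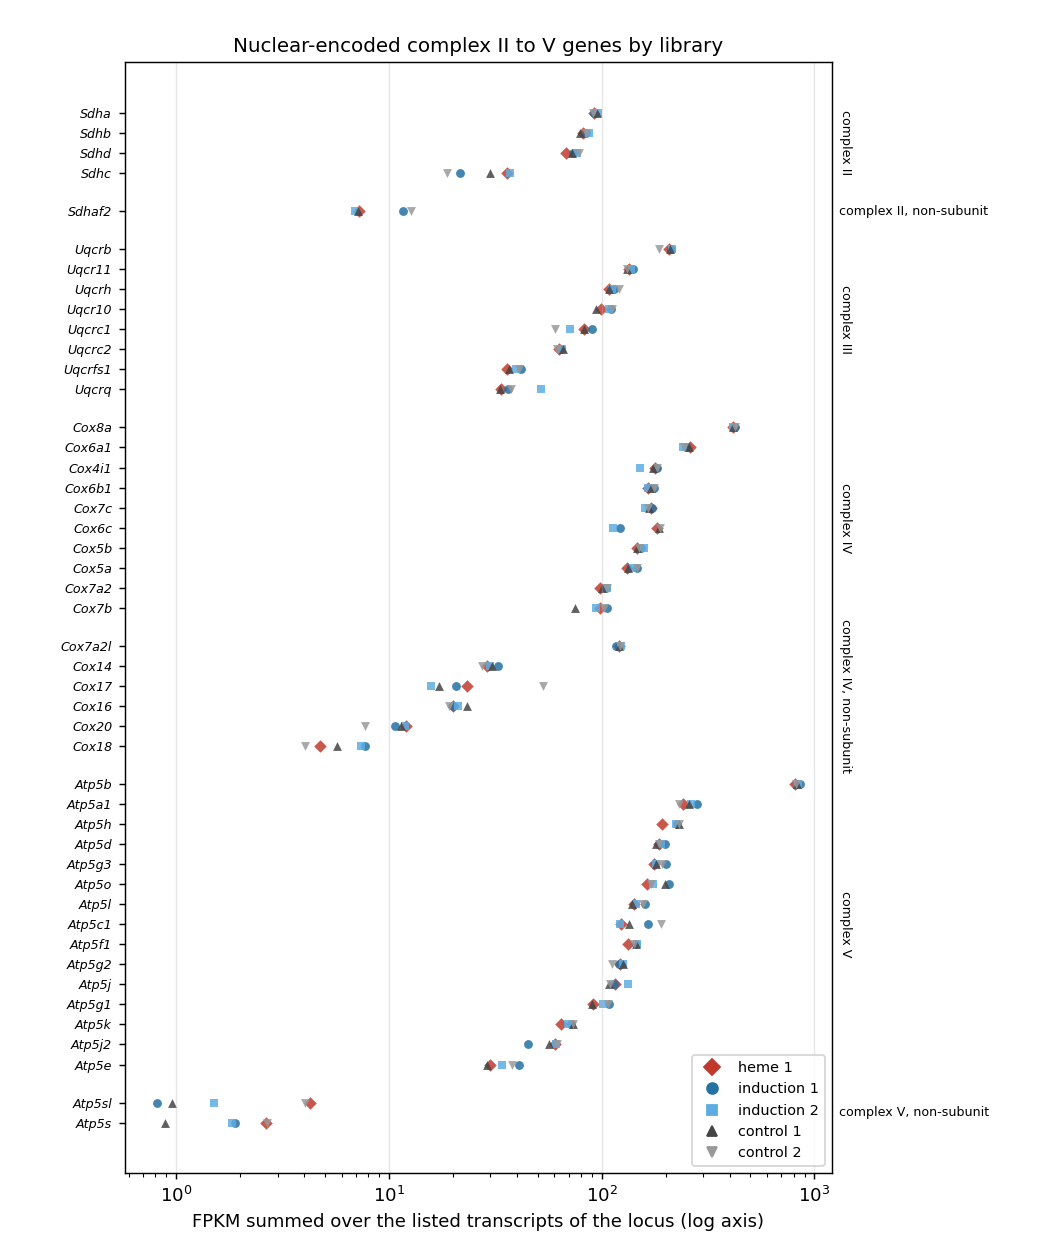
FPKM of each of the 46 loci on a log axis, with 1 symbol per library (heme, neural induction 1 and 2, control 1 and 2), grouped by complex and ordered by mean level; "non-subunit" marks assembly factors, Cox7a2l, Atp5s and Atp5sl. Most rows are tight clusters of 5 symbols, and Cox6c, Sdhc, Cox17, Cox18, Atp5s and Atp5sl are spread.

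Summed by complex, the subunits stayed within a narrow range in all libraries. Complex II subunits summed to 279 FPKM in the heme library, 272 and 297 FPKM in the neural induction libraries, and 277 and 273 FPKM in the control libraries. The heme value lay just above both controls, and the induction values lay on either side of them. Complex III subunits summed to 765 FPKM with heme, 809 and 800.4 FPKM with neural induction, and 762 and 752 FPKM in controls, so that both induction libraries were above both controls (ratio of means 1.06). Complex IV subunits summed to 1846 FPKM with heme, 1840 and 1744 FPKM with neural induction, and 1826 and 1884 FPKM in controls, with overlapping groups. Complex V subunits summed to 2656 FPKM with heme, 2938 and 2814 FPKM with neural induction, and 2779 and 2826 FPKM in controls: the heme library was the lowest of the 5, and the induction libraries fell on either side of control replicate 2. These sums were not tested, and the heme values have n = 1. They hold only the genes chosen by name, so they are not totals of whole complexes. Further nuclear subunits in the table are left out, such as Cyc1 of complex III (105 to 118 FPKM), Ndufa4 and Usmg5. The table also holds 37 loci named Nduf and a letter, taken as the nuclear complex I set. They summed to 1941 FPKM with heme, 2012 and 1971 FPKM with neural induction, and 1979 and 1892 FPKM in controls. Unlike the subunit sums above, this set includes assembly factors (Ndufaf1, Ndufaf2 and Ndufaf4). It also includes Ndufa4, which the lists of related genes place with complexes II to V.

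**Figure D2:**
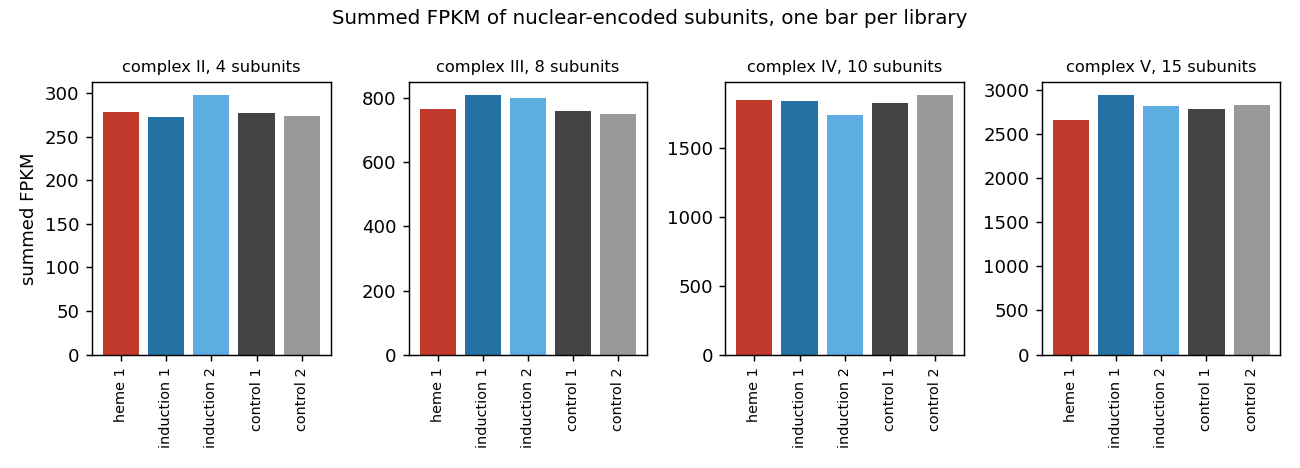
Summed FPKM of the nuclear-encoded subunits of each complex that were chosen by name, 1 bar per library, on axes that start at 0. Further nuclear subunits such as Cyc1 are not in the sums. Complex V is lowest in the heme library (2656 FPKM), and complex III is higher in both neural induction libraries (809 and 800.4 FPKM) than in both control libraries (762 and 752 FPKM).

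Heme was compared with control to see which of these genes differ when heme is added. None of the 46 loci passed the test (limma on log2(FPKM + 1), Benjamini-Hochberg adjusted p below 0.05 over 7039 loci), where 0.0426% of all loci tested passed, and 1 (Atp5h) had an unadjusted p below 0.05, against 3.59% of all loci. The median log2 fold change was -0.02, against -0.0035 over all loci, and 16 of the 46 were above 0, against 49.2% of all loci. The heme library was above both controls at 9 loci and below both at 15, where 25.5% and 31.1% of all loci did so. Only Sdhc and Atp5sl differed by at least 0.5 on the log2 scale, which is 4.35% of the 46 loci, against 12.8% of all loci.

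Neural induction was compared with control to see whether expression of these genes differs after the induction treatment. Again none of the 46 passed the test, where 0.0142% of all loci did, and 1 (Cox6c) had an unadjusted p below 0.05, against 3.05% of all loci. The median log2 fold change was 0.03, against 0.02 over all loci, with 30 of the 46 above 0 against 54.7%. Both induction libraries were above both controls at 10 loci and below both at 3, against 18.2% and 13% of all loci. Cox17, Cox6c, Cox18 and Atp5sl differed by at least 0.5 on the log2 scale (8.70%, against 10.4% of all loci). By complex, fold changes were above 0 at 3 of 4 complex II, 7 of 8 complex III, 5 of 10 complex IV and 11 of 15 complex V subunits. The 2 comparisons share the control libraries, so they are not independent of each other.

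Heme was also set against neural induction directly. None of the 46 loci passed, where 0.0568% of all loci did, and 2 had an unadjusted p below 0.05 (Cox6c and Atp5h), against 3.38% of all loci. The median log2 fold change was -0.06, against -0.02 over all loci, and 12 of the 46 were above 0, against 43.1%. The heme library was above both induction libraries at 6 loci and below both at 27, against 27.3% and 40.3% of all loci; 11 of the 15 complex V subunits and 7 of the 8 complex III subunits were among those below. With 5 libraries and 2 residual degrees of freedom, and with the lone heme library assumed to vary like the others, a p that misses the threshold does not show that levels were equal; the intervals in the plot of fold changes give the range left.

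**Figure D3:**
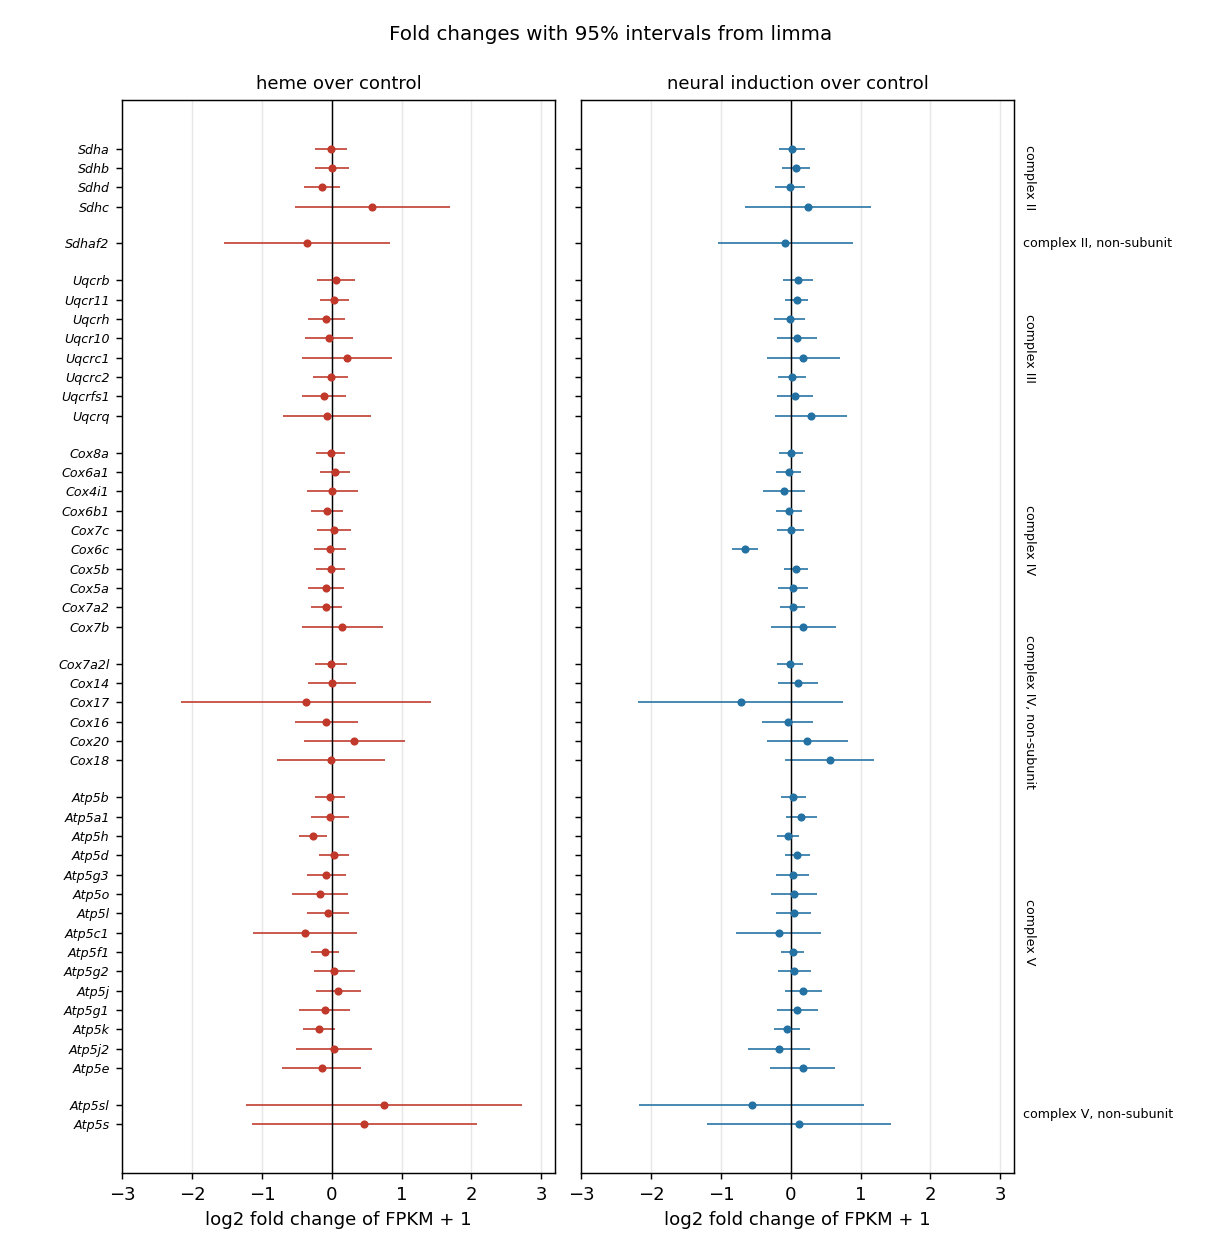
Log2 fold change of FPKM + 1 with its 95% interval from limma for each of the 46 loci, heme over control on the left and neural induction over control on the right. Cox6c under neural induction (-0.66) stands away from 0 among intervals that otherwise mostly cross it, and Atp5h under heme (-0.27) is the other subunit whose interval leaves 0 out.

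Complex II is the smallest group. Sdha, the flavoprotein that oxidises succinate, had 92.6 FPKM with heme, 92.5 and 95.9 FPKM with neural induction, and 95.3 and 91.2 FPKM in controls. Sdhb, its iron-sulfur partner, had 81.7 FPKM with heme, 84.8 and 87.7 FPKM with neural induction, and 79.0 and 84.2 FPKM in controls, and the membrane anchor Sdhd had 68.4 FPKM with heme, 73.6 and 76.5 FPKM with neural induction, and 72.7 and 78.7 FPKM in controls. These 3 subunits spanned at most 1.15-fold over the libraries. The second membrane anchor, Sdhc (chr1:171127165-171150603, GRCm38), did not follow them: it had 36.0 FPKM with heme, 21.7 and 37.2 FPKM with neural induction, and 29.9 and 18.9 FPKM in controls. Its groups overlapped under induction, and its log2 fold change with heme was 0.58 ± 0.42 (SE, limma adjusted p = 0.998). That value was 0.26 without control replicate 2 and 0.90 without control replicate 1.

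Sdhc has 2 listed transcripts, of 3171 and 1252 bases. The longer, annotated coding transcript had 5.43 FPKM with heme, 15.8 and 6.80 FPKM with neural induction, and 9.93 and 17.0 FPKM in controls. The unannotated transcript of the locus had 30.6 FPKM with heme, 5.90 and 30.4 FPKM with neural induction, and 20.0 and 1.85 FPKM in controls, so that libraries high in one were low in the other. Counted on the annotated transcript alone, the heme log2 fold change was -1.13, the opposite sign. At Sdhb, the unannotated transcript MSTRG.14519.3 held 70.3% to 75.2% of the FPKM of the locus. The annotated coding transcript of Sdhb held 13.0% to 20.8%. Sdhaf2, which helps insert flavin into SDHA, had 7.25 FPKM with heme, 11.7 and 6.95 FPKM with neural induction, and 7.20 and 12.7 FPKM in controls, with 1 high and 1 low library in each replicated group.

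Complex III subunits had small fold changes above 0 at 7 of 8 loci under neural induction, and none passed the test. The core proteins Uqcrc1 and Uqcrc2 had 82.4 and 63.4 FPKM with heme. Uqcrc2 was even, at 64.8 and 65.0 FPKM with neural induction and 66.2 and 62.0 FPKM in controls, whereas Uqcrc1 had 90.3 and 71.1 FPKM with neural induction and 82.3 and 60.6 FPKM in controls. The heme log2 fold change of Uqcrc1, 0.22 ± 0.24 (SE), was 0.002 without control replicate 2 and 0.44 without control replicate 1. The unannotated Uqcrc1 transcript MSTRG.21556.2 had 10.996 FPKM with heme, 12.8 and 0.233 FPKM with neural induction, and 7.08 and 0.232 FPKM in controls. Its log2 fold change for heme over control was 1.93, and replicates differed widely in both replicated groups. Uqcrfs1, the Rieske iron-sulfur protein, had 35.9 FPKM with heme, 41.7 and 39.7 FPKM with neural induction, and 36.9 and 41.1 FPKM in controls. Uqcrb, a small subunit, had 207 FPKM with heme, 211 and 215 FPKM with neural induction, and 209.7 and 187 FPKM in controls. Uqcrq, another small subunit, was high in 1 library, with 33.8 FPKM with heme, 36.5 and 52.1 FPKM with neural induction, and 33.4 and 37.4 FPKM in controls. In neural induction replicate 2 its shorter coding transcript ENSMUST00000109021 had 35.9 FPKM, against 8.73 to 10.2 FPKM in the other libraries.

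Complex IV held the member with the smallest p under neural induction. Cox6c, a small nuclear subunit of cytochrome c oxidase (chr15:35931976-35938246, - strand, GRCm38, 1 listed coding transcript ENSMUST00000014457), had 183 FPKM with heme, 122 and 114 FPKM with neural induction, and 186 and 187 FPKM in controls. Both induction libraries were far below the 3 others, which lay close together. The log2 fold change of neural induction over control was -0.66 ± 0.07 (SE, 95% interval -0.85 to -0.47). Its p in limma ranked 6 among the 7039 loci, at an adjusted p of 0.489. Heme over neural induction gave 0.63 ± 0.09 (SE, limma adjusted p = 0.498). With each library left out in turn, the neural induction value lay between -0.71 and -0.61. In the authors' deposited table for neural induction, which sets 1 library against 1 and so has no replicate spread behind it, the Cox6c transcript had a log2 fold change of -0.62, and in the authors' deposited table for heme -0.04. No close copy of Cox6c was found in GENCODE M21 at 95% identity over 50% of its length. Less Cox6c RNA per cell and fewer cells with it cannot be told apart in these bulk libraries.

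**Figure D4:**
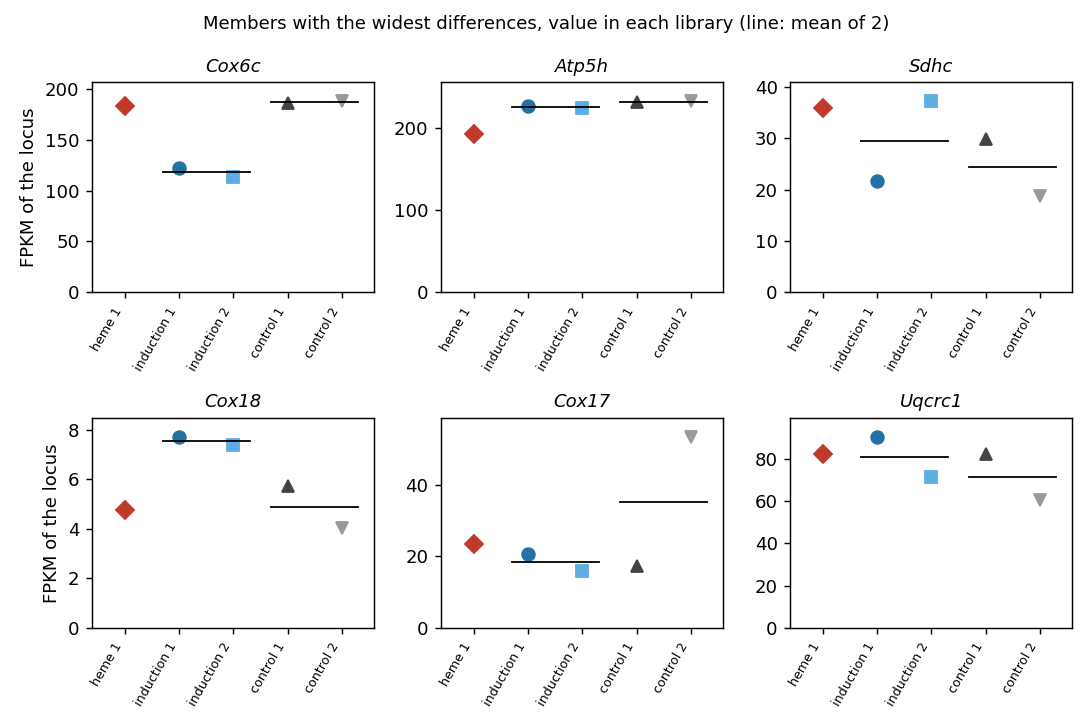
FPKM of 6 selected loci in each library, with a line at the mean of the 2 neural induction and the 2 control libraries. They are not the 6 with the widest spans: Atp5sl and Atp5s, not shown, span 5.26-fold and 3.01-fold, and Atp5h spans 1.21-fold. Cox6c has both induction libraries (122 and 114 FPKM) below the rest, Atp5h has the heme library (193 FPKM) below the rest, and Sdhc, Cox17 and Uqcrc1 differ as much within a group as between groups.

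The other 9 complex IV subunits did not share the Cox6c pattern. Without it, complex IV subunits summed to 1663 FPKM with heme, 1718 and 1630 FPKM with neural induction, and 1641 and 1697 FPKM in controls. Cox5a had 132 FPKM with heme, 147 and 139 FPKM with neural induction, and 134 and 147 FPKM in controls, and Cox5b, its zinc-binding neighbour in the enzyme, had 147 FPKM with heme, 153 and 158 FPKM with neural induction, and 147 and 149 FPKM in controls. Cox8a, the most abundant nuclear-encoded subunit of the enzyme here, spanned only 1.03-fold, with 415 FPKM with heme, 424 and 415 FPKM with neural induction, and 414 and 424 FPKM in controls. Cox6a1, the ubiquitous form of subunit 6A, had 259 FPKM with heme, 250.3 and 242 FPKM with neural induction, and 258 and 244 FPKM in controls. Of the paralog pairs fixed for description, only the ubiquitous forms Cox4i1, Cox6a1, Cox6b1, Cox7a2 and Cox8a are members. No listed row carries the name Cox4i2, Cox6a2, Cox6b2, Cox7a1, Cox8b or Cox8c. The listed rows are part of a larger assembly, so this does not show that these genes were silent. Cox6b1 ran between 165 and 177 FPKM, Cox7a2 between 97.9 and 106 FPKM, and Cox7a2l between 116 and 124 FPKM.

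The assembly factors of complex IV were lower than its subunits in every library. Cox17, which hands copper to the enzyme's assembly pathway, had 23.3 FPKM with heme, 20.7 and 15.8 FPKM with neural induction, and 17.2 and 53.3 FPKM in controls: control replicate 2 was above all others and control replicate 1 was the second lowest. Cox18, which helps insert COX2 into the membrane, had 4.77 FPKM with heme, 7.71 and 7.38 FPKM with neural induction, and 5.73 and 4.03 FPKM in controls. Both induction libraries were above the rest, with a log2 fold change over control of 0.56 ± 0.24 (SE, limma adjusted p = 0.935), which was 0.35 without control replicate 2. With only annotated coding transcripts counted, the sign of its heme against neural induction value turned, to 0.70. Cox20, a COX2 chaperone, had 12.04 FPKM with heme, 10.7 and 11.9 FPKM with neural induction, and 11.4 and 7.73 FPKM in controls, where control replicate 2 was low. Cox14 ran between 27.5 and 32.7 FPKM. The Cox16 locus ran between 19.2 and 23.4 FPKM and includes a transcript of its neighbour Synj2bp.

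Complex V includes the most abundant locus of the set. Atp5b, the catalytic beta subunit of F1 (chr10:128083273-128090391, GRCm38), had 814 FPKM with heme, 855 and 842 FPKM with neural induction, and 828 and 823 FPKM in controls, a span of 1.05-fold. Atp5a1, the alpha subunit, had 240.2 FPKM with heme, 279 and 264 FPKM with neural induction, and 258 and 231 FPKM in controls, with both induction libraries above both controls (log2 fold change 0.15 ± 0.09, adjusted p = 0.935 in limma); the value was 0.07 without control replicate 2 and 0.23 without control replicate 1. Atp5c1, the gamma subunit that forms the turning shaft, varied more within groups: 123 FPKM with heme, 165 and 122 FPKM with neural induction, and 135 and 191 FPKM in controls. Its heme log2 fold change of -0.38 ± 0.28 (SE) was -0.14 without control replicate 2 and -0.63 without control replicate 1.

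In the peripheral stalk, which holds F1 still against the turning shaft, Atp5h, Atp5f1 and Atp5o were each lowest in the heme library, and Atp5j was not. Atp5f1 (subunit b) had 134 FPKM with heme, 145 and 147 FPKM with neural induction, and 144 and 142 FPKM in controls. The Atp5o locus had 163 FPKM with heme, 207 and 175 FPKM with neural induction, and 199 and 171 FPKM in controls. Atp5h (subunit d) had 193 FPKM with heme, 227 and 224 FPKM with neural induction, and 231 and 232 FPKM in controls. The log2 fold change of heme over control was -0.27 ± 0.07 (SE, 95% interval -0.46 to -0.07), with an unadjusted limma p of 0.0191 that ranked 133 among the 7039 loci and an adjusted p of 0.989. The main coding transcript ENSMUST00000180072 had 116 FPKM with heme, 178 and 175 FPKM with neural induction, and 195 and 176 FPKM in controls, while the processed transcript ENSMUST00000137563 had 14.2 FPKM with heme and 0.765 to 1.04 FPKM in the other libraries. Atp5h has 4 near-identical pseudogenes in GENCODE M21, so reads may be split between copies. Atp5j (factor F6) had 116 FPKM with heme, 114 and 134 FPKM with neural induction, and 109 and 109 FPKM in controls, and it overlaps Gabpa on the opposite strand. Reads of overlapping genes on opposite strands, found at 13 of the 46 loci, can be told apart only if the authors' counting used strand, which the sources used here do not state. Among Atp5j transcripts, the unannotated MSTRG.7828.5 had 21.3 FPKM with heme, 0 and 24.7 FPKM with neural induction, and 0 FPKM in both controls. The Atp5j retained-intron transcript ENSMUST00000146103 had 26.2 FPKM with heme, 27.5 and 1.26 FPKM with neural induction, and 30.7 and 33.2 FPKM in controls.

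The c ring of the rotor is made from 3 genes that encode the same mature protein, and their proportions held across conditions. Atp5g1 gave 23.4% of the summed FPKM of the 3 in the heme library, 25.3% and 24.9% in the neural induction libraries, and 22.7% and 26.0% in the control libraries. Atp5g2 gave 31.3% with heme, 28.1% and 30.9% with neural induction, and 31.9% and 27.1% in controls, and Atp5g3 gave the largest share in every library, 44.2% to 46.8%. The total was 390.3 FPKM with heme, 430.3 and 407 FPKM with neural induction, and 397 and 412 FPKM in controls. Among the small membrane subunits, Atp5k (subunit e) had 64.3 FPKM with heme, 71.98 and 69.5 FPKM with neural induction, and 73.1 and 73.4 FPKM in controls. Atp5e (F1 epsilon) had 29.9 FPKM with heme, 40.9 and 34.1 FPKM with neural induction, and 28.9 and 37.9 FPKM in controls. Atp5s and Atp5sl stayed under 5 FPKM in every library.

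The 46 loci hold 101 listed transcripts, of which 67 are annotated as protein coding, 8 as retained intron, 8 as processed transcript and 5 as targets of nonsense-mediated decay, and 13 are unannotated; 89.3% to 90.5% of the summed FPKM lay on the coding ones. Of 26 loci with several transcripts, the most abundant one differed between libraries at 6 (Atp5c1, Atp5s, Cox16, Cox18, Sdhc and Uqcrq), which is 23.1% against 60.9% of 3964 such loci in the table. Of 97 transcripts tested, none passed in limma in any comparison, against 0.0728%, 0.00728% and 0.0801% of all transcripts for heme over control, neural induction over control and heme over neural induction, and 5 had an unadjusted p below 0.05 in each, where 4.95%, 4.98% and 4.96% of all transcripts did.

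Cox4i1 encodes the regulatory subunit 4 of cytochrome c oxidase and has 7 listed transcripts, none of which passed the test. The locus had 179 FPKM with heme, 183 and 151 FPKM with neural induction, and 174 and 182 FPKM in controls. Its retained-intron transcript ENSMUST00000181172 had 58.9 FPKM with heme, 9.72 and 5.96 FPKM with neural induction, and 30.5 and 34.5 FPKM in controls. Both induction libraries were below both controls and the heme library was above all, with log2 fold changes of -1.95 ± 0.26 for neural induction over control (SE, limma adjusted p = 0.359) and 2.79 ± 0.32 for heme over neural induction (adjusted p = 0.186). The coding transcript ENSMUST00000181586 was above both controls in both induction libraries, with 6.98 FPKM with heme, 35.6 and 13.5 FPKM with neural induction, and 3.99 and 6.47 FPKM in controls. The main coding transcript ENSMUST00000034276 had 69.9 FPKM with heme, 89.7 and 119 FPKM with neural induction, and 74.6 and 82.8 FPKM in controls. The unannotated Cox4i1 transcript MSTRG.20625.6 had 37.1 FPKM with heme, 33.2 and 0.256 FPKM with neural induction, and 59.98 and 52.8 FPKM in controls. Its log2 fold change for neural induction over control was -3.13 ± 1.68 (SE), and the induction replicates differed widely.

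Atp5c1 transcripts differ by an alternative exon of 37 bases (chr2:10056770-10056806, - strand, GRCm38), which in humans is known to be left out in heart and skeletal muscle. The junctions that tell the forms apart are given here, with the last 18 bases of the shared exon in lower case and the first 12 bases of the next exon in capitals.
Atp5c1 exon skipped, ENSMUST00000026887: ctctggggctgctgctctGTAAAGAAGAAG
Atp5c1 exon included, ENSMUST00000114897: ctctggggctgctgctctGGATTAATGAAA
The form without the exon made up 9.65% of the FPKM of the 3 full-length forms in the heme library, 5.06% and 9.61% in the neural induction libraries, and 7.96% and 24.5% in the control libraries. Control replicate 2 stood apart, and the other 4 libraries overlapped across groups. Of the forms with the exon, ENSMUST00000114897 had 45.2 FPKM with heme, 137 and 35.8 FPKM with neural induction, and 72.8 and 137 FPKM in controls, and the longer ENSMUST00000114896 had 65.0 FPKM with heme, 12.2 and 73.5 FPKM with neural induction, and 50.4 and 4.93 FPKM in controls.

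At other loci, different transcripts stood high in replicates of the same group. At Atp5b, whose total was steady, the processed transcripts ENSMUST00000126751 and ENSMUST00000125992 had 62.4 and 0.367 FPKM in neural induction replicate 1, against 0.320 and 61.8 FPKM in neural induction replicate 2. The other 3 libraries were like neural induction replicate 2, with 56.8 to 61.1 FPKM of ENSMUST00000125992. At Atp5o, the OSCP subunit of the stalk, the coding transcript ENSMUST00000139277 had 24.4 FPKM with heme, 3.68 and 27.3 FPKM with neural induction, and 0 and 24.7 FPKM in controls. The Atp5o decay target ENSMUST00000155452 had 0 FPKM with heme, 11.8 and 10.1 FPKM with neural induction, and 8.63 and 0 FPKM in controls. The Atp5f1 decay target ENSMUST00000133320 had 0 FPKM with heme, 0.675 and 30.8 FPKM with neural induction, and 6.27 and 7.51 FPKM in controls. The Atp5a1 coding transcript ENSMUST00000114748 had 5.95 FPKM with heme, 6.90 and 66.8 FPKM with neural induction, and 9.76 and 5.83 FPKM in controls. The authors' deposited tables, which compare single replicate 1 libraries and hold no replicate spread, give 9 of the 87 rows in each comparison an adjusted p below 0.05 (10.3%, against 7.24% of all rows for heme and 7.20% for neural induction, adjusted here over all rows), 5 higher and 4 lower in each. For neural induction these include both Atp5b transcripts (log2 fold changes 7.28 and -6.98 in the authors' deposited table), 2 each of Atp5c1 and Cox4i1, and Cox6c. For heme they include 3 each of Atp5h and Atp5o in the authors' deposited table.

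**Figure D5:**
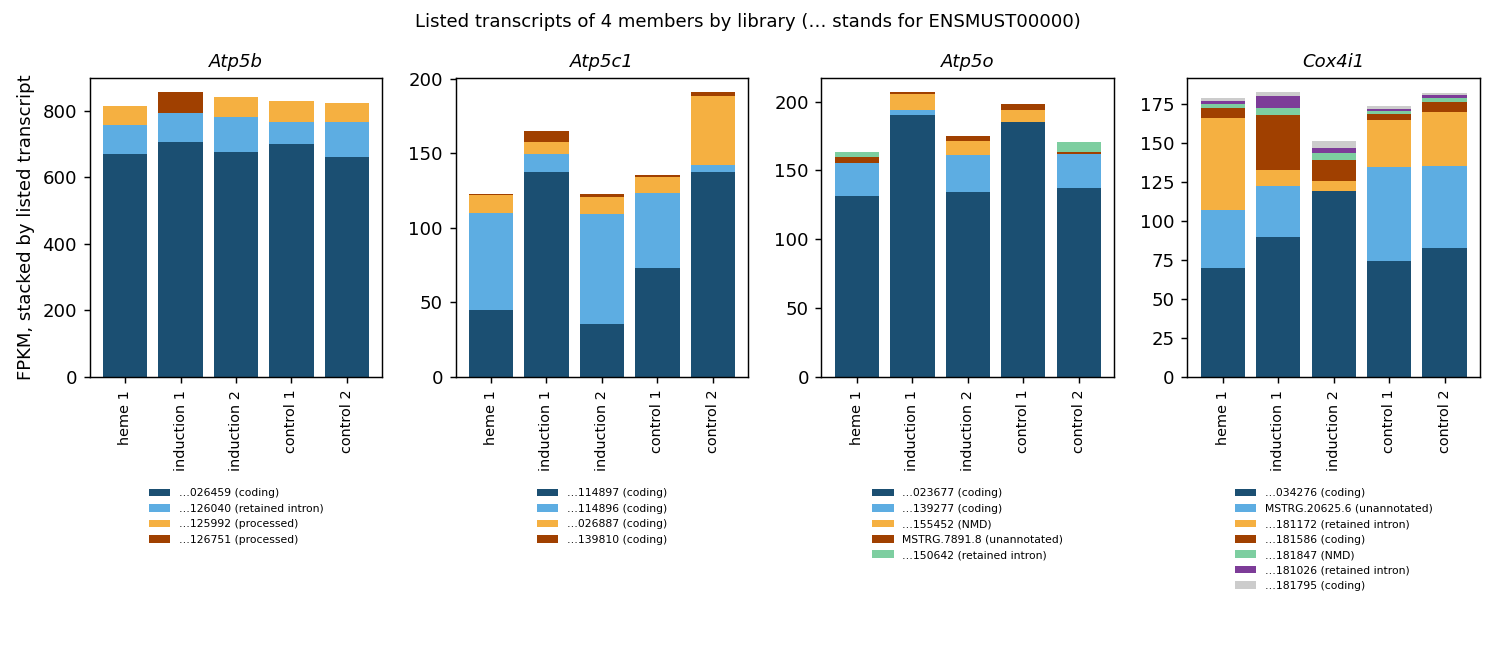
FPKM of the listed transcripts of Atp5b, Atp5c1, Atp5o and Cox4i1, stacked per library, with each transcript's annotated class in the legend (NMD: nonsense-mediated decay). The bars of Atp5b reach 814 to 855 FPKM in every library while 1 thin segment is another transcript in neural induction replicate 1, and the Cox4i1 retained-intron segment is thinnest in both neural induction libraries (9.72 and 5.96 FPKM).

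Other genes that work with these complexes were taken from lists of related genes. Of 8 further names listed beside the subunits, 6 were in the table as written. A gene can be listed under another name, so a name not found does not show an absent gene. None of the 6 passed the test in any comparison. Their median log2 fold change was -0.06 with heme and -0.04 with neural induction over control. Cyc1, the cytochrome c1 of complex III, had 105 FPKM with heme, 118 and 113 FPKM with neural induction, and 109.8 and 109.7 FPKM in controls. Cycs, the cytochrome c that carries electrons from complex III to complex IV, had 59.4 FPKM with heme, 67.2 and 62.3 FPKM with neural induction, and 59.5 and 73.4 FPKM in controls. Of 34 further assembly and stability genes, 17 were in the table and none passed; their median log2 fold change was -0.05 with heme and -0.04 with neural induction over control. Pet117, an assembly factor of complex IV, had 10.6 FPKM with heme and 9.34 FPKM in control replicate 1 but below 0.01 FPKM in the other 3 libraries. The 6 subunits of complexes III to V encoded in mitochondrial DNA summed to 23385 FPKM with heme, 19287 and 22574 FPKM with neural induction, and 18960 and 24208 FPKM in controls, with both treated groups inside the range of the controls.

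Over the 46 loci, the absolute log2 difference had a median of 0.05 between heme replicate 1 and control replicate 1, 0.08 between the neural induction replicates and 0.13 between the controls. Over all loci tested the same medians were 0.09, 0.10 and 0.21. Each library was also set against the median of the other 4, and loci more than 1.3-fold from it, up or down, were counted. There were 5 of the 46 loci in the heme library (10.9%, against 16.9% of all loci tested), 6 and 7 in the neural induction libraries (13.0% and 15.2%, against 16.8% and 17.6%), and 4 and 9 in control replicates 1 and 2 (8.70% and 19.6%, against 16.9% and 27.8%). Of the 9 in control replicate 2, Cox17, Atp5c1, Sdhaf2, Atp5s and Atp5sl were higher there, and Sdhc, Cox18, Cox20 and Uqcrc1 were lower.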

How the data were processed

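Members, gene lists and tests were chosen with earlier results of these data known. The submitters' processing notes name HISAT2, StringTie, edgeR and the GRCm38 (mm10) build, without versions. The authors deposited an FPKM and a coverage value per transcript and library, for part of a larger assembly whose selection rule the sources used here do not give. The authors also deposited 2 tables of comparisons, whose columns are a log2 fold change and log2 abundance, a test score (likelihood ratio) and a p-value. For transcripts of at least 5 FPKM, these fold changes match the ratio of the replicate 1 libraries within 0.1.

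From the deposited FPKM, values were summed over all listed transcripts of a locus and tested with limma 3.58.1 in R 4.3.3 (eBayes with trend, two-sided) on log2(FPKM + 1), over the 7039 loci that reached 1 FPKM in 2 or more libraries, with Benjamini-Hochberg adjustment and a threshold of 0.05. The fit held 5 libraries in 3 groups, with the heme replicate 2 column left out as a scaled copy of replicate 1; the planned fit on all 6 columns was run as an alternative. Fold changes on this scale understate changes of low loci. Depth comes from coverage divided by FPKM; without counts, no counting interval can be given. The p-values measure only the spread between these libraries. Transcript classes came from GENCODE M21 (GRCm38), which holds all 87 member rows, 79 of them with the same start and end. Copies were sought with BLAST 2.17.0+. Figures used matplotlib 3.10.9.

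Named genes are the SDH subunits, core and catalytic subunits, fixed paralog groups and assembly factors, plus, per comparison, up to 3 loci per direction and up to 5 transcripts with the largest fold changes among those with a mean of at least 5 FPKM and groups that do not overlap. Atp5o, the Atp5f1 locus, Atp5s, Atp5sl, Cyc1, Cycs, Pet117 and the transcripts of Atp5b, Atp5h, Sdhb and Uqcrq were named after their values were seen.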

Additional observations from a re-analysis of the deposited data

How the results depend on the processing

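The count of loci past the threshold was 0 of 46 in each comparison under another pseudocount, no filter, named transcripts only, centred libraries, annotated coding transcripts only (added after the data were seen), a mean of the heme columns and each library left out in turn. With all 6 columns as separate samples it was 1 for heme against control (Sdhc, 0.86, adjusted p = 0.0429) and 1 for heme against neural induction (Cox6c, 0.85, adjusted p = 0.0330), a fit that counts the copied heme column as a replicate. That fit moved the median log2 fold change of the 46 loci to 0.20 for heme against control and 0.17 for heme against neural induction, and the mean of the heme columns moved them to 0.22 and 0.19. With that mean, Atp5h (0.0085) and Atp5k (0.0038) reversed for heme against control, and the log2 ratios of the complex sums became 0.31 for complex II, 0.29 for III, 0.22 for IV and 0.17 for V against control, and 0.26, 0.21, 0.27 and 0.13 against neural induction; the copied column is scaled up by construction.

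With only named transcripts, Sdhc for heme against control reversed to -1.13 and Cox18 for heme against neural induction to 0.093; with only coding transcripts they were -1.13 and 0.70. Complex II sums moved to -0.11 (heme against control) and -0.12 (heme against neural induction) with named transcripts, and to -0.12, -0.11 and -0.014 (neural induction against control) with coding ones. Complex III for heme against control moved to 0.0014 and -0.0010 in these settings, and complex IV with coding transcripts to -0.0037 for neural induction against control and -0.0084 for heme against neural induction; the cause was not tested. Leaving out a library gave medians of -0.012 to 0.053 for neural induction against control, and complex II ratios of -0.013 to 0.11 for neural induction against control and -0.094 to 0.032 for heme against neural induction.

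Same-numbered replicates of control and neural induction did not deviate together (Pearson r = -0.051 over 7039 loci and -0.237 over the loci described here). Heme, with 1 library, could not enter this check, so it cannot exclude a pairing. With the replicate block the count stayed at 0 in each comparison, and Cox20 for heme against neural induction was -0.0078. Limits: heme rests on 1 library, the other groups on 2 each, and the locus sums hold only the listed transcripts.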
